A study of Mus musculus with 4 samples.

Results

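The comparison is of mouse embryonic stem (ES) cells labelled Sall4-null with Sall4-heterozygous ES cells, both grown on a layer of feeder cells. It was described across all genes, with 1 array for each genotype. Of the 18193 genes that the array's probe sets named, 11650 were brighter than a signal of 17.1 on at least 1 of these 2 arrays, and the description is of those. The value for a gene is the difference between the arrays in log2(signal + 4.6), null minus heterozygous. The offset of 4.6, which is the 25th percentile of the deposited signals, makes folds of dim genes smaller. The limit of 17.1 was the median of all signals. Without replicates, the variation between cultures is unknown and no test was possible, and "higher" and "lower" below mean the array labelled null relative to the heterozygous array.

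Both lines were E14.1 ES cells. The heterozygous line, HET18, carried 1 floxed and 1 null allele of Sall4 (flox/-), and the line labelled null, KO1, carried a recombined allele in place of the floxed one (delta/-). Each genotype was a single line, so genotype and line cannot be told apart. Both had been given a targeting vector that links an IRES and a blasticidin-resistance gene to Oct3/4 genomic sequence, and were kept in GMEM with fetal calf serum, leukaemia inhibitory factor (LIF) and blasticidin, on blasticidin-resistant fibroblasts. The other 2 arrays of the series held the same lines cultured without feeders, under the same selection. They share no array with the pair on feeders and are used here as values to set beside it.

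SALL4 is a zinc finger transcription factor of the spalt family that is abundant in ES cells, the early embryo and germ cells. It binds chromatin together with the NuRD repressor complex and with other pluripotency factors. Feeder fibroblasts are mitotically inactive cells that secrete factors and matrix for ES cells, and their RNA is extracted with that of the ES cells. In bulk RNA of this kind, fewer cells of a type and less RNA per cell cannot be told apart.

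Sall4 itself was higher on the array labelled null. Its brighter probe set read 781 in heterozygous cells and 1452 in those labelled null, and its second probe set read 88.6 and 218.8. Both probe sets therefore go against the label, if they lie in the deleted part of the gene. The labels do not say which part was deleted or where the probe sets lie, so the direction of every difference below rests on the label alone. Pou5f1, which encodes the selected factor Oct3/4, read 1112 and 1187, a log2 difference of 0.09. ES cell markers were present on both arrays: all 6 fixed markers (Pou5f1, Sox2, Nanog, Zfp42, Esrrb and Dppa5a) were above the limit, with summed signals of 16758 and 15605.

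Fibroblast markers were present on both arrays, and their levels were not equal. Of 10 fixed fibroblast markers 9 had a probe set, and all 9 were above the limit on both arrays. Their signals summed to 7042 for heterozygous cells and to 10451 for cells labelled null, and to 113 and 469 in the cultures without feeders. Over all 46 listed fibroblast genes with a probe set, 44 of them above the limit, the sum was 39496 and 51219, a ratio of 1.30. More feeder RNA and expression of these genes by the ES cells cannot be told apart. Markers of other cells that such a layer could hold were mixed. Among 5 macrophage markers, 3 were above the limit on both arrays, and the 5 summed to 304 and 282. Without feeders 2 of the 5 were also above it on both arrays, Cd68 at 89 and 55.3 and Csf1r at 22.8 and 28.1. On feeders Cd68 read 111 and 63.2, and Ptprc, the pan-leukocyte marker, read 9.2 and 10. Lyz2, which read 1.6 and 8.6 without feeders, was at 142 and 168. Among 4 endothelial markers, Cdh5 and Emcn were below the limit on both arrays. Pecam1, which ES cells also express, read 127 and 69.5, and the 4 summed to 198.5 and 149.5.

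Across the 11650 genes the median difference was 0.01, and the middle 90% lay between -0.74 and 0.65 on the log2 scale. At least 2-fold, 196 genes were higher (1.68% of the genes described) and 294 were lower (2.52%). Counts within the gene lists below are to be read beside these shares. The pair without feeders had 502 higher (4.44% of 11304 genes) and 391 lower (3.46%). Most of the genes counted on feeders were not bright. The median signal of the brighter array was 51.25 for the higher genes and 53.6 for the lower genes, against 135.5 for all genes described.

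**Figure D1:**
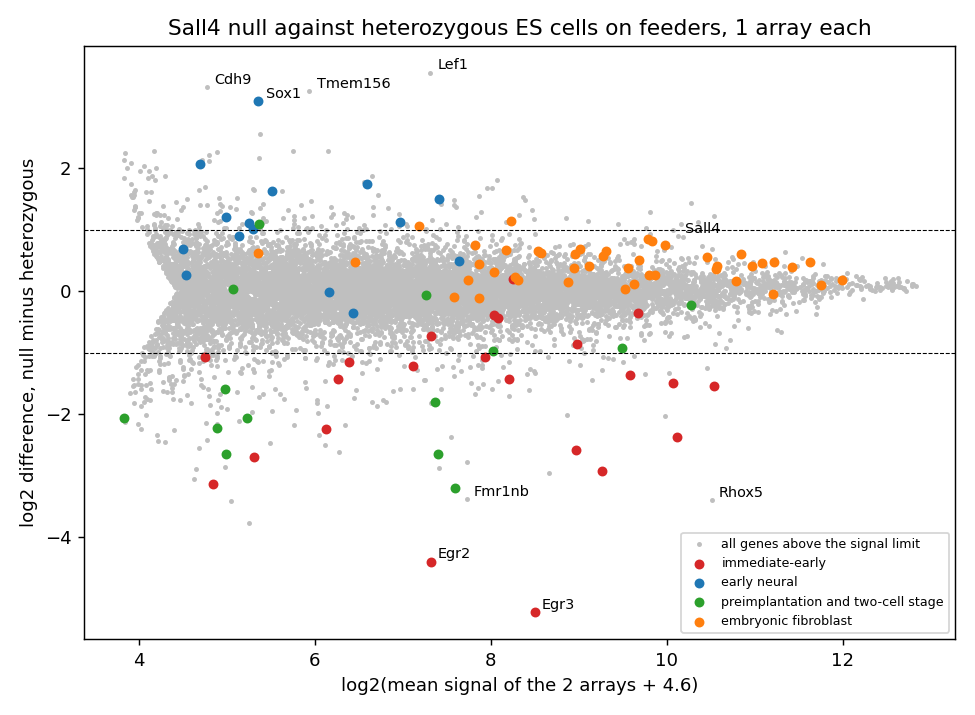
Each point is 1 of the 11650 genes; the horizontal axis is log2 of the mean signal of the 2 feeder arrays plus 4.6, and the vertical axis is the log2 difference, null minus heterozygous, with dashed lines at 2-fold. Egr3 at -5.23 and Egr2 at -4.41 lie lowest, Lef1 at 3.56 highest, and the fibroblast genes (orange) mostly lie a little above 0 at high signal.

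Egr3 and Egr2, the lowest genes at the offset used, belong to the immediate-early response, as do Nr4a3 and Nr4a1 among the 15 lowest. These genes are transcribed within minutes of growth factor, serum or stress signals, without new protein synthesis, largely through serum response factor, its ternary complex partners, and CREB or ATF factors bound close to the start site. The list held 23 genes, all above the limit, so the limit dropped none of them. Egr3, Egr2, Nr4a3, Nr4a2 and Fosb passed it only through the heterozygous array. Of the 23 genes, 17 were at least 2-fold lower and 0 higher, and 22 lay below 0. The median was -1.43, beside a median of 0.01 over all genes. The median of the same 23 genes in the pair without feeders was 0.63. The 200 bases before a RefSeq start of 5 of the 17 lower genes are given here because they show the DNA next to which such factors are known to bind (GRCm38.p6, written 5′ to 3′ on the gene's strand, ending at the base before the start). The 5 genes were picked by hand. Where a gene had more than 1 start, the one with the most motif matches is printed, so these windows do not represent the 17 genes. Capitals mark matches to the CArG box, the serum response factor motif, and to TGACG on either strand, the core of the CREB and ATF motif. Neighbouring TGACG matches on opposite strands overlap in TGACGTCA.
Fos, chr12:85473690-85473889, plus strand: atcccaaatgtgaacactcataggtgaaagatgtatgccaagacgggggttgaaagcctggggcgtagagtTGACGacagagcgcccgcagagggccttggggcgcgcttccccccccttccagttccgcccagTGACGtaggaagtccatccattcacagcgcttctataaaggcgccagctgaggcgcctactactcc
Egr2, chr10:67537669-67537868, plus strand: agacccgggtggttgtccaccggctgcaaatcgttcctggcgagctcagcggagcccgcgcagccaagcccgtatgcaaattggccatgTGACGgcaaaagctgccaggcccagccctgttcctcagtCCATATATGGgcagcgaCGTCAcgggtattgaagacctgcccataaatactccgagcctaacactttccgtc
Zfp36, chr7:28379229-28379428, minus strand: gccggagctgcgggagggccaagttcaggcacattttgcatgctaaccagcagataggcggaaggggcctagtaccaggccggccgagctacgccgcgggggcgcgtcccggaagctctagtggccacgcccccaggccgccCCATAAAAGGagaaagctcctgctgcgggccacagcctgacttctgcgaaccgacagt
Btg2, chr1:134079156-134079355, minus strand: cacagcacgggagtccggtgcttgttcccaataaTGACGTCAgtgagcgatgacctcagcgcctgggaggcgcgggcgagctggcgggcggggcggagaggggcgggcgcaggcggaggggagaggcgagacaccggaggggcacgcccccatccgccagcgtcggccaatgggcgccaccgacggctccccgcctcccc
Dusp1, chr17:26508473-26508672, minus strand: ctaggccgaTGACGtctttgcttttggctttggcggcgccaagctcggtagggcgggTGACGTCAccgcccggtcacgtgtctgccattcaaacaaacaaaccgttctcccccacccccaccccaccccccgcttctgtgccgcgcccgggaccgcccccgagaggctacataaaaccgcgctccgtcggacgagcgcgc

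Of the 17 lower immediate-early genes, 13 matched an entry of the promoter table. TGACG, searched on both strands over the 250 bases before the start, was present in 11 of these 13 genes (84.6%), against 5347 of 27025 genes in the table (19.8%). The CArG box was present in 2 of 13, Egr2 and Zfp36, against 1.62% of the table's genes. The remaining genes with TGACG were Atf3, Ccn1, Fosb, Junb, Nr4a1, Nr4a2 and Nr4a3, beside Btg2, Dusp1, Egr2 and Fos. The listed genes that were not lower were not searched, so these shares do not set the lower genes apart from other immediate-early genes. A match describes the letters in this window and is no evidence of binding.

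Among the transcription factors of this group, the Egr zinc finger genes differed most. Egr3 read 11.8 and 33.6 in heterozygous and labelled-null cells cultured without feeders, then 701 and 14.2 on feeders, a log2 difference on feeders of -5.23. Its other probe set, below the limit, read 14 and 4.5 on feeders, and the mean of both gave -3.13. Egr2 read 7.2, 7.8, 299.5 and 9.7 in the same order, a difference of -4.41, and its second probe set gave 249 and 11.5. Egr1 read 198.5, 309, 1853 and 353, a difference of -2.38. For all 3 genes the heterozygous array on feeders stood far above the other 3, on which Egr1 was still well above the limit. In the orphan nuclear receptor genes, too, the heterozygous feeder array was the highest of the 4. Nr4a1 read 306, 272, 1086 and 138.5 (-2.93), and Nr4a3 read 0.8, 6.3, 46.8 and 1.2 (-3.15). Nr4a2 read 6.7, 10, 31.9 and 12.7 (-1.08).

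Subunits of the AP-1 transcription factor were lower to unequal degrees. Fos read 84.3, 203, 854 and 138, a log2 difference on feeders of -2.59, and Fosb read 2.9, 5.4, 64 and 5.9 (-2.71). Fosl1 read 20.7, 36.9, 107 and 37.1 (-1.43). The partners of the Fos proteins differed less, with Junb at -1.15 and Jun at -1.08, while Fosl2 (-0.38) and Jund (0.20) stayed within 2-fold. Atf3, a stress-induced factor of the CREB and ATF family, read 41.2, 56.8, 111 and 19.7 (-2.25). Myc, a growth regulator that ES cells also express, read 362, 392, 194 and 116 (-0.72), and here both feeder arrays were below both arrays without feeders.

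Genes of the group that encode other kinds of protein were lower as well. Ccn1 and Ccn2, which encode secreted matrix-associated proteins, read 1590 and 559, and 2214 and 755, on feeders, differences of -1.50 and -1.55. Dusp1, a phosphatase that inactivates MAP kinases, read 1104 and 425 (-1.37). Btg2, an antiproliferative gene, read 425 and 155 (-1.43), and Zfp36, whose protein speeds the decay of AU-rich messenger RNAs, read 189.7 and 78.7 (-1.22). Arc, a gene induced by activity in neurons and by serum in other cells, is not on the list and read 6.4, 2.5, 66.6 and 0.6 (-3.78), which became -2.24 with the offset at the median signal. In 18 of the 23 listed genes the heterozygous array on feeders was the highest of the 4 arrays, and in 10 it was at least 2-fold above each of the other 3. The share of all genes described that had such a pattern was not counted, here or for the lists below. The summed signal of the list was 4718 and 7227 without feeders, against 13747 and 4854 with them.

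**Figure D2:**
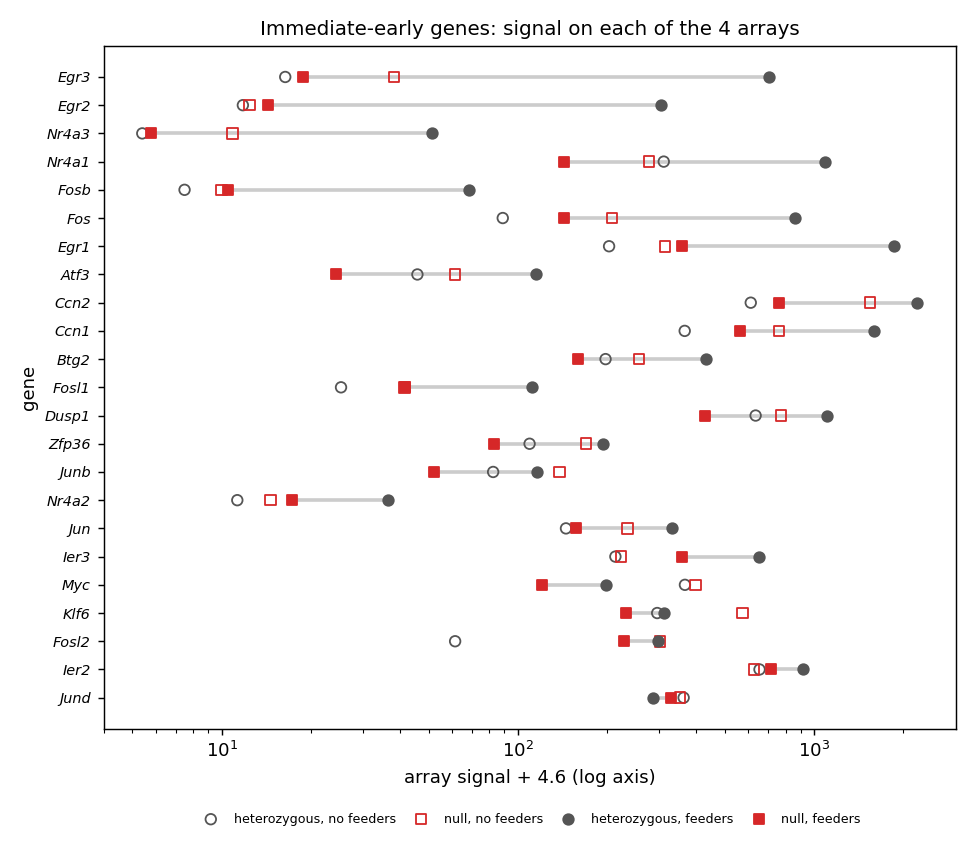
Signal plus 4.6, on a log axis, of the 23 immediate-early genes on each of the 4 arrays, 1 array a point; the grey line joins the 2 feeder arrays. For 18 genes the heterozygous array on feeders (filled circle) is the highest, and the array labelled null on feeders (filled square) is the lowest for 8.

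Fibroblasts also express these genes, and the arrays do not assign a transcript to a cell type. The fibroblast list, at a median of 0.43, lay on the other side of 0 from the immediate-early list. The part of feeder cells in the difference was not tested.

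Some other genes that respond to growth factors were also lower, and Errfi1 and Ptgs2 are named here after their values were seen. Errfi1, which encodes a feedback inhibitor of the EGF receptor, read 424 and 996 without feeders, against 1618 and 392 with them (-2.03). Dusp5, a nuclear ERK phosphatase, read 117, 242.5, 128 and 24.7 (-2.18), and here the array labelled null on feeders was the one apart. Ptgs2, the inducible cyclooxygenase, read 46.4, 230.3, 744 and 180.5 (-2.02), and its second probe set on feeders read 369.5 and 93. The cytokine gene Il6 was almost unmeasured without feeders, at 0.1 and 0.3, and read 96.8 and 24.2 on feeders (-1.82). The list of FGF and ERK feedback genes was uneven: its 16 genes above the limit had 3 lower and 0 higher, with a median of -0.42. The 3 lower genes were Egr1, Dusp5 and Fgf4, the last at 516 and 167 on feeders (-1.60). Dusp6 read 591 and 459 (-0.36), and Spry2 731 and 751 (0.04), while Spry1, Spry4, Spred1 and Spred2 lay between 0.09 and 0.39.

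Genes of the ATF4 and unfolded protein pathways, which answer amino acid shortage and protein misfolding, had a median of -0.45 over 24 genes, with 20 below 0, 3 at least 2-fold lower and 0 higher. The 3 were Atf3, Mthfd2 and Sesn2. Mthfd2, a mitochondrial folate enzyme, read 542 and 254 on feeders (-1.08), and Sesn2, a stress sensor of the mTOR pathway, read 128 and 60.3 (-1.03). The pathway's transcription factor gene Atf4 was level at 993 and 969, and Ddit3, another stress-induced factor, was higher, at 112 and 189 (0.73). In 17 of the 24 genes the heterozygous array on feeders was the highest of the 4, a pattern that was not counted over all genes.

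On the higher side, genes of early neural tissue, mostly transcription factor genes, formed the list with the largest median. These genes mark the neural plate and its anterior to posterior divisions, which arise when pluripotent cells leave self-renewal without mesoderm or endoderm signals. Of 30 genes 27 had a probe set and 15 passed the limit. Of the 15, 9 were at least 2-fold higher, beside 1.68% of all genes described, and 0 were lower. The 15 had a median of 1.12 on feeders and 0.82 for the same genes without feeders. Sox1, En1 and Sox3 passed the limit only through the array labelled null. The 12 that did not pass, among them Neurog2, Olig2, Pax3 and Six3, were too dim on both feeder arrays to compare. The 15 are therefore the brighter part of the list. Differences of the 12, not dependable at such signals, lay on both sides of 0, such as Nkx6-1 at 1.32 and Six3 at -1.14.

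Sox1, the earliest specific marker of the neural plate, read 20.7 and 47.3 without feeders, against 4 and 68.8 with them, a log2 difference on feeders of 3.09, and the mean of its probe sets gave 1.92. Sox11, a factor of neural progenitors and young neurons, read 298, 435.5, 39.7 and 144 (1.75), and its 5 further probe sets above the limit gave differences between 0.83 and 1.38. Sox3, a relative of Sox1, read 49.8, 61.7, 14.6 and 39.9 (1.21). For these 3 genes the heterozygous array on feeders was the lowest of the 4, as it was for 9 of the 15. How many of all genes had this pattern was not counted. The homeobox genes of the boundary between midbrain and hindbrain separated the genotypes in both conditions. En1 read 4.5, 20.2, 5.4 and 37.2 (2.06), En2 read 25.5, 84.2, 17.6 and 64.2 (1.63), and Gbx2, also a target of LIF signalling in ES cells, read 127, 228, 73.6 and 167 (1.13). Ntn1, the axon guidance factor netrin-1, read 32.1, 112, 84.8 and 248 (1.50). Zic1 (1.12) and Pax6 (1.02), transcription factor genes of the neural tube, also passed 2-fold, and Tubb3, a tubulin of neurons, read 67.4 and 66.4 on feeders (-0.02). Irx3 was the lowest of the 15, at -0.36 on feeders and 2.03 without.

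In the Wnt pathway the differences were larger for some targets than for others. Canonical Wnt signalling stabilises beta-catenin, which works with LEF1 and TCF factors at target genes. Lef1 was the highest of all genes at the offset used. It read 88.2 and 261 without feeders, against 20.3 and 288 with them (3.56), and its second probe set on feeders read 9.8 and 65.9 (2.29). Lgr5, a receptor for R-spondins, read 4.7, 15, 4.6 and 20.9 (1.47), and Notum, a secreted enzyme that inactivates Wnt proteins, read 140.2, 219, 124 and 262 (1.05). These 3 were the ones at least 2-fold higher among 12 targets and antagonists above the limit, with 0 lower and a median of 0.34. Widely used targets differed little, with Axin2 at 35 and 43.8 on feeders (0.29), Sp5 at 21.2 and 19.7 (-0.09) and Znrf3 at 74.1 and 73.6 (-0.01). Without feeders the same 12 genes had a median of 0.74, and Sp5 read 19.3 and 53.5 (1.28).

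All 4 Sall genes were above 0 on feeders. Sall3 read 2.4 and 83.2 without feeders, against 5.2 and 41.1 with them (2.22), and its second probe set on feeders read 7.2 and 30.7. Sall1 read 386 and 577 (0.57), with 98.9 and 155 on its second probe set, and Sall2 read 19.6 and 41.2 (0.92). Sall3 was the single member past 2-fold. Without feeders Sall2 (-0.44) lay below 0, and the probe sets of Sall1 did not agree in sign, at -0.15 and 0.26.

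**Figure D3:**
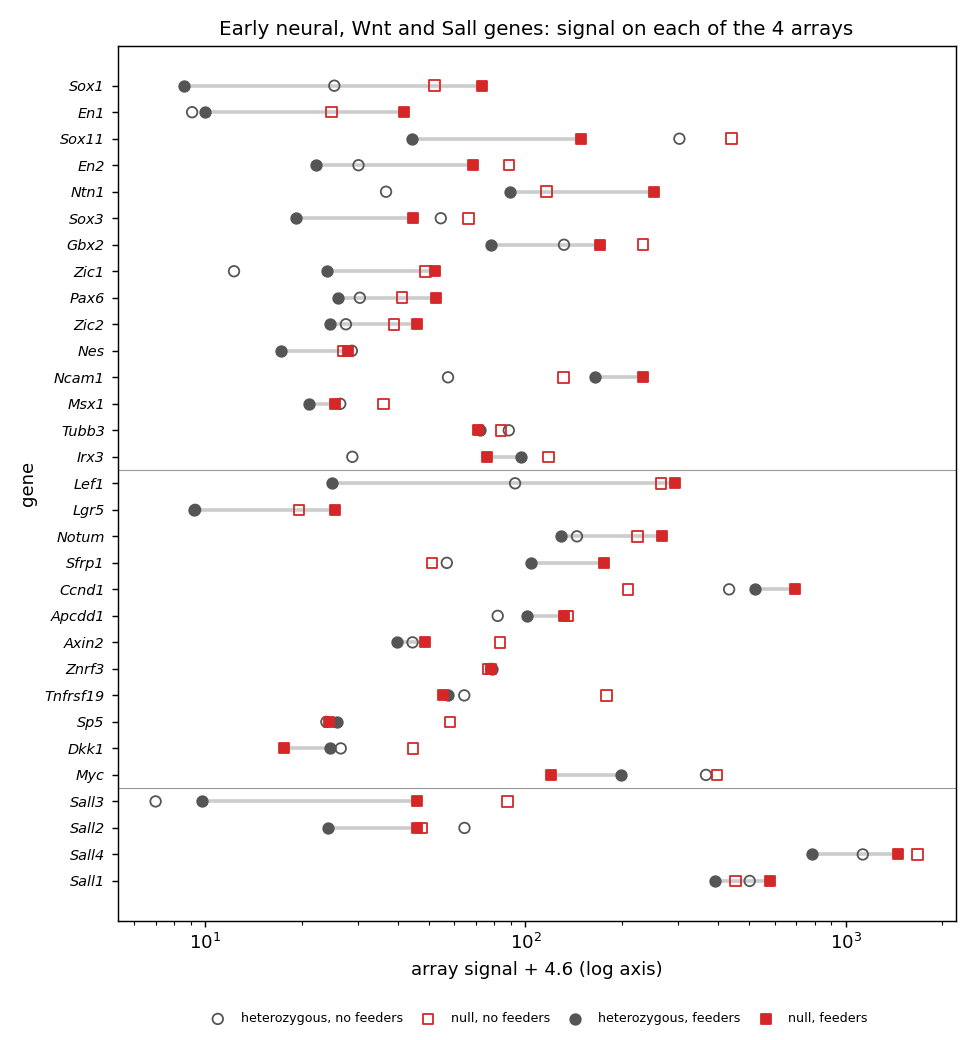
Signal plus 4.6, on a log axis, of the early neural genes (top), the Wnt targets and antagonists (middle) and the Sall family (bottom) on each of the 4 arrays, 1 array a point; the grey line joins the 2 feeder arrays. Sox1, Sox11 and Lef1 are lowest on the heterozygous feeder array (filled circle), and Axin2, Znrf3 and Sp5 nearly coincide on the feeder arrays.

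The other highest genes were of mixed function, and several were low on a single array. Cdh9, a classical cadherin, read 29 and 27.2 without feeders, against 0.4 and 45.3 with them (3.32), so that the heterozygous feeder array alone was near 0. Car3, a carbonic anhydrase, read 156, 163, 7.4 and 66.2 (2.56), and its second probe set on feeders read 9.3 and 24.1 (1.05). Tmem156, a membrane protein gene, read 5.5, 83.6, 7 and 106 (3.26), and there the genotypes separated in both conditions. Insm1, a zinc finger gene of neuroendocrine and neural progenitors, read 13.5, 28.1, 5.5 and 44.3 (2.28), and Bcl11a, a zinc finger gene of blood and brain, read 13, 16.7, 5.1 and 38.2 (2.14), with 2.1 and 17.8 on its second probe set. Glcci1, a glucocorticoid-induced transcript, read 36.3, 26.6, 19.6 and 112.7 (2.28), but its second probe set gave 25.2 and 37.4 (0.50). The 15 highest genes also held Adgrv1 (2.29), Ccdc141 (2.29), Amdhd1 (2.24), A930024E05Rik (2.18), Mlip (2.13) and Mfap4 (2.12). Mfap4, a microfibril-associated protein of connective tissue, read 5.8 and 40.6 on feeders.

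Genes of the preimplantation embryo lay below 0 in 12 of 14. They are active around the 2-cell stage or in oocytes and cleavage embryos, and part of them also in rare ES cells that resemble that stage. Of 24 genes 19 had a probe set and 14 passed the limit. Pramel6 and Ubtfl1 passed it only through the heterozygous array. Differences of the genes too dim to pass lay on both sides of 0, such as Tcstv1 at -1.77 and Nlrp5 at 0.90. Of the 14, 8 were at least 2-fold lower and 1 higher. The median of the 14 was -1.70 on feeders and -1.51 for the same genes without feeders. This list's median was the lowest of the lists at the offset and limit used, but not with the offset at the median signal, where it was -1.03 against -1.46 for the Rhox genes and -1.34 for immediate-early genes. With the brighter array above 90.6 it was -0.98, against -1.60 and -1.40. Calml4, a calmodulin-like gene, read 122 and 11 without feeders, against 344 and 33.1 with them (-3.21). Usp17la, a deubiquitinase, read 182, 53.4, 288 and 42 (-2.65), and Ubtfl1, needed for preimplantation development, read 34.6, 6.5, 44.2 and 5.8 (-2.23). In these 3 the arrays labelled null were below the heterozygous arrays in both conditions. Pramel6 and Pramel7, neighbours on chromosome 2, were at -2.66 and -1.58. Zfp352 was at -2.07 in both conditions, and Dppa3, a maternal factor that protects DNA methylation in the zygote, was at -1.81 on feeders and -2.71 without. Ooep, of the subcortical maternal complex, was within 2-fold at 938 and 493 (-0.92). Nlrp4f went the other way, at 21.5 and 51.4 (1.10).

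Germ cell genes were lower on feeders, with 6 of 21 genes at least 2-fold lower, 0 higher and 18 below 0, at a median of -0.61. The median of the same genes without feeders was -0.05, and of 20 genes above the limit there 5 were at least 2-fold lower and 1 higher. Smc1b, a cohesin subunit of meiosis, read 13.6 and 0.7 without feeders, against 56 and 1.1 with them (-3.41). It passed the limit only through the heterozygous feeder array. Stag3, another meiotic cohesin subunit, read 153, 76.9, 271 and 101.5 (-1.38), and Mael, a factor of the piRNA pathway, read 159, 111, 233 and 94.3 (-1.26). Fmr1nb, an X-linked testis gene, read 369, 27.4, 382 and 32.3 (-3.39). Dazl (-1.06), an RNA-binding protein gene of germ cells, and Sycp1 (-1.01), a structural gene of the synaptonemal complex, were the other members past 2-fold. Hormad2, a meiotic gene outside the list, read 8.7, 1.2, 39.4 and 0.7 (-3.05), and it too passed only through the heterozygous feeder array. Stra8, which licenses entry into meiosis, was opposite in sign between the pairs, at 79.8 and 53.7 on feeders (-0.53) and 86.6 and 200.4 without (1.17).

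The Rhox genes, homeobox genes of the X chromosome expressed in reproductive tissue and extraembryonic cells, were lower together. Of 15 listed genes 4 had a probe set. Rhox5 read 2229 and 118 without feeders, against 2660.1 and 247 with them (-3.40), Rhox6 was at -1.60 and Rhox9 at -1.50. Rhox13 was within 2-fold at 45.4 and 27 (-0.66). Rhox5, Rhox6 and Rhox9 are consecutive, among the genes described, in the gene order of the RefSeq table.

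Some other counted genes were neighbours in that order. Among the genes at least 2-fold apart, 36 pairs were adjacent, with no other described gene between them. Of the 970 genes next to a counted gene, taken once for each side, 7.42% were counted too, beside 4.20% of all genes placed in the order. Of the 36 pairs, 18 were lower together, 9 were higher together and 9 differed in opposite directions. The longest run, on chromosome 13, held AF067063 (-1.51), D13Ertd608e (-1.04), Gm20767 (-2.79), AF067061 (-2.96) and Tcstv3 (-2.06), the last known from cells that resemble the 2-cell stage. AF067061 was read by a probe set of the x_at class and D13Ertd608e by one of the s_at class, which can bind several related transcripts, so these 5 values may not be separate. Gm20767 read 186 and 57.8 without feeders, against 367 and 49.3 with them. Igsf23 and Ceacam20, neighbouring genes of the immunoglobulin superfamily, were at -2.48 and -1.82. Abcb1a and Abcb1b, which encode drug efflux pumps, were at -1.14 and -1.29. Higher neighbours included Hal and Amdhd1, both of histidine breakdown, at 1.14 and 2.24, and Scd3 and Scd2, fatty acid desaturases, at 1.84 and 1.13.

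Core and naive pluripotency genes were close to level. Of 31 genes 0 were at least 2-fold higher and 3 were lower, with a median of -0.18 on feeders and -0.39 without. The 3 were Dppa3, Fgf4, the growth factor through which ES cells signal to themselves, and Tbx3. Tbx3, a T-box factor of naive cells, read 259 and 184 without feeders, against 343 and 112 with them (-1.58), and the mean of its probe sets gave -0.90. Nanog read 2069 and 1394 (-0.57), Klf2 1055 and 721 (-0.55) and Fbxo15 2976 and 1915 (-0.63). Tfcp2l1, a LIF target, read 686 and 397 (-0.78), but the mean of its probe sets gave 0.09. Other central genes differed by less than 0.10: Sox2 (0.01), Tet1 (0.02), Klf5 (-0.03), Klf4 (-0.05) and Pou5f1 (0.09).

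Lists of the lineages that leave pluripotency first differed in direction. Among 12 primed epiblast genes Lef1 and Sox3 were higher and Otx2, an anterior epiblast factor, was lower (187 and 86.2, -1.08), at a median of 0.07. Dnmt3b, the de novo methyltransferase of the epiblast, read 2446 and 1372 without feeders but 1301 and 1232 on feeders (-0.08). Trophectoderm genes lay below 0 in 17 of 19, with 3 at least 2-fold lower, 1 higher and a median of -0.65, while the same genes without feeders had a median of -0.01 and 18 genes above the limit there also had 3 lower and 1 higher. Wnt7b read 106 and 25.8 on feeders (-1.87), Eomes, a T-box factor of trophoblast stem cells and mesendoderm, 59 and 21.2 (-1.30), and Plet1 27 and 8.9 (-1.23). Plac1, a placental gene, was higher at 6.6 and 22 (1.25). Both feeder signals of Cdx2 were below the limit. Of 18 endoderm genes, Amn (-1.89), Lama1 (-1.29) and Cubn (-1.17) were lower. Amn and Cubn together encode the cubam receptor of visceral endoderm. Cxcr4, a chemokine receptor of definitive endoderm, was higher at 7.6 and 29.9 (1.50), and 7 of the 25 measured endoderm genes, Gata4 and Foxa1 among them, were too dim to compare.

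Among signalling lists, BMP targets were below 0 in 11 of 12 genes on feeders, with 2 at least 2-fold lower, 0 higher and a median of -0.60. Without feeders the median of the same genes was 0.37. The Id genes encode inhibitors of basic helix-loop-helix factors and maintain ES cell self-renewal with LIF. Id3 read 433 and 660.5 without feeders, against 647 and 293 with them (-1.13). Id1 read 302, 722.5, 155 and 98.2 (-0.63), and Msx2 35.3, 128, 39.1 and 24.5 (-0.59), so in these 3 genes the array labelled null was the higher one without feeders and the lower one with them. Smad6, an inhibitory Smad, read 127 and 60.5 on feeders (-1.01), and the ligand gene Bmp4 670 and 384 (-0.80). Targets of Nodal went the other way at the top of their list. Lefty1 and Lefty2, adjacent genes that encode secreted inhibitors of Nodal, read 661 and 1804 (1.44), and 186 and 444 (1.24), on feeders. Without feeders they read 1271 and 902, and 427 and 167, so each was lower there on the array labelled null. Nodal itself was at 344 and 421 (0.29), and the 8 genes of the list had a median of 0.27. LIF pathway genes were close to level, with 1 of 13 higher (Gbx2), 1 lower (Junb), a median of -0.11, and Socs3, the feedback inhibitor of the pathway, at 485 and 694 (0.51).

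Fibroblast genes were slightly higher almost throughout. Of 44 genes above the limit 41 lay above 0, 2 were at least 2-fold higher and 0 lower, and the median was 0.43. Lum, a collagen-binding proteoglycan, read 182 and 408 on feeders (1.15), and Twist2, a mesenchymal transcription factor, 89.6 and 193 (1.07). Col1a1, the major collagen of connective tissue, read 627 and 1136 (0.85), Col3a1 1992 and 2776.5 (0.48) and S100a4, a calcium-binding protein of fibroblasts, 654 and 1161 (0.82). Without feeders the same genes had a larger median, 1.09, at far lower signals, with Col1a1 at 1.5 and 36 and S100a4 at 2.3 and 32.5. Contractile actin genes (median 0.39 over 14) and Hox genes (median 0.36 over 18), both of which embryonic fibroblasts express, lay on the same side, with Actg2 (1.02) and Hoxa10 (1.06) past 2-fold. Hoxa10 read 8.8 and 23.4. Chemokine genes split: Cxcl14 read 89.9 and 248 (1.42) and Cxcl5 31.2 and 77 (1.19), while Il6 was lower. The lysozyme gene Lyz1 read 0.8 and 0.4 without feeders, against 317 and 378 with them (0.25). That probe set is of the x_at class, which can bind related transcripts. A probe set of Lyz1 outside that class read 0.7 and 2.4 on feeders, below the limit.

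Imprinted genes, which are expressed from 1 parental allele, lay above 0 in 20 of 22, with 3 at least 2-fold higher, 1 lower and a median of 0.26. The 22 include Nckap1 (0.07), which is not an imprinted gene. Nnat, a membrane protein gene of the brain, read 126 and 224 without feeders, against 18.7 and 55.3 with them (1.36). Peg3, a zinc finger gene, read 276 and 641 on feeders (1.20), and Mirg, a noncoding RNA of the Dlk1 and Meg3 region, 66.4 and 146 (1.08). Slc38a4, an amino acid transporter, was the lower one, at 825 and 301 (-1.44). Igf2, which fibroblasts also express, was level on feeders at 2219 and 2425 (0.13) and not without them, at 368 and 816 (1.14).

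Lists of general cell functions were near 0. No gene was at least 2-fold apart among 31 replication and mitosis genes (median 0.11), 24 glycolysis and hypoxia genes (0.11), 20 cholesterol synthesis genes (-0.08), 20 DNA methylation and polycomb genes (0.03), 18 interferon and antigen presentation genes (-0.01), 16 matrix protease genes (0.25), 15 NuRD genes (0.09), 14 heat shock genes (0.08), 14 housekeeping genes (0.08), 12 IGF genes (0.00), 7 cell cycle inhibitors (0.10) or 7 macrophage genes (0.02). In the IGF list, however, Igfbp5, an IGF-binding protein gene, passed 2-fold on the probe set brightest on feeders, at 17.4 and 67.1 (1.70), against 0.86 on the one used. The NuRD list holds the partners of SALL4, and within it Mbd3, a methyl-CpG-binding domain protein, was highest at 128 and 185.5 (0.52), and Chd5 lowest at 32.2 and 21.4 (-0.50). The 14 housekeeping genes lay between -0.19 (Hprt) and 0.18 (Pgk1). The glycolysis and hypoxia list includes Pigq (0.03), which is not a gene of either kind. Epithelial junction genes had 2 of 26 lower, the desmosomal cadherin Dsg2 at 402 and 178 (-1.15) and the claudin Cldn4 at 323 and 146.5 (-1.12), with a median of -0.29. The p53 targets had 2 of 18 lower, Btg2 and Sesn2, both named above, and a median of -0.15. Basement membrane (1 of 14 lower, Lama1, median -0.03), endothelial (1 of 6 lower, Vwf at 46 and 16.7, median -0.25), primitive streak and mesoderm (1 of 8 lower, Eomes, median 0.22) and mesenchymal transition genes (1 of 15 higher, Twist2, median 0.19) completed the lists.

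**Figure D4:**
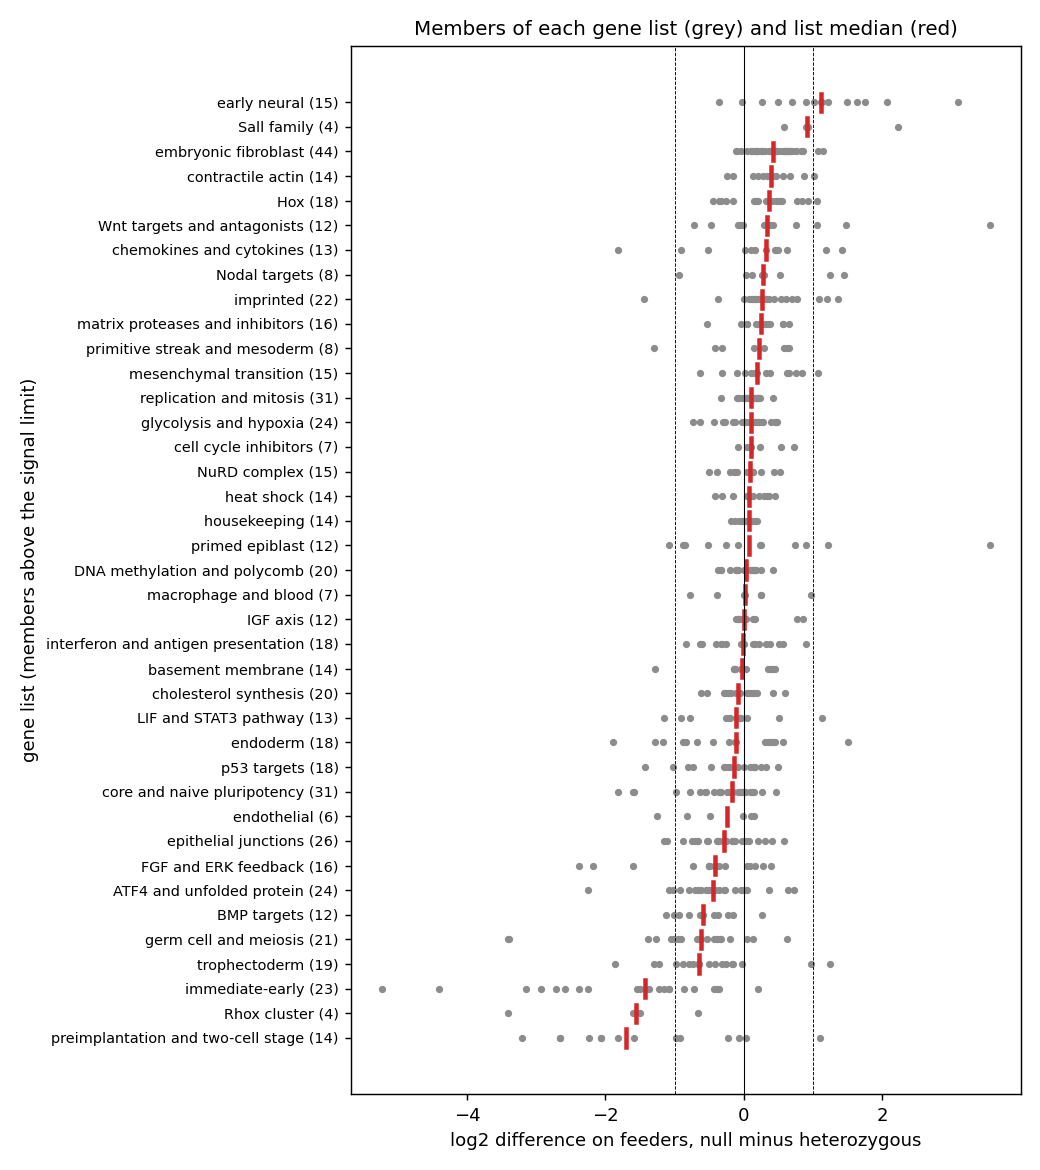
Each grey point is a member of a list above the signal limit, placed by its log2 difference on feeders (null minus heterozygous), and the red bar is the list median; the number of members stands beside each name and the dashed lines mark 2-fold. The early neural list lies highest at 1.12, the preimplantation, Rhox and immediate-early lists lowest at -1.70, -1.55 and -1.43 at the offset used, and replication and housekeeping genes gather near 0.

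The genes counted on feeders overlapped in part with those counted without feeders. Of the 196 higher genes 42 (21.4%) were also at least 2-fold higher without feeders, which is 8.37% of the 502 counted there. Over all genes described in each pair, 4.44% were higher without feeders and 1.68% on feeders. Of the 294 lower genes 99 (33.7%) were also at least 2-fold lower, or 25.3% of the 391. The shares over all genes were 3.46% lower without feeders and 2.52% on feeders. Without feeders 57 of the higher (29.1%) and 64 of the lower genes (21.8%) were not above the limit on either array, against 6.55% of all genes described. In opposite directions past 2-fold were 15 genes, 13 lower on feeders and higher without, and 2 the reverse. The 13 included Egr3, Fos, Ccn1 and Ccn2 of the immediate-early list, with Errfi1, Ptgs2 and Dusp5. Phlda1, a pleckstrin homology domain gene induced by growth factors, read 253 and 666 without feeders, against 446 and 134 with them. F3, which encodes tissue factor, read 210.5, 601.5, 490 and 199.8, and Edn1, the vasoconstrictor endothelin-1, 38.8, 100.7, 59.7 and 20. In these 3 genes the 2 pairs showed reversed order, each from 1 array a side.

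**Figure D5:**
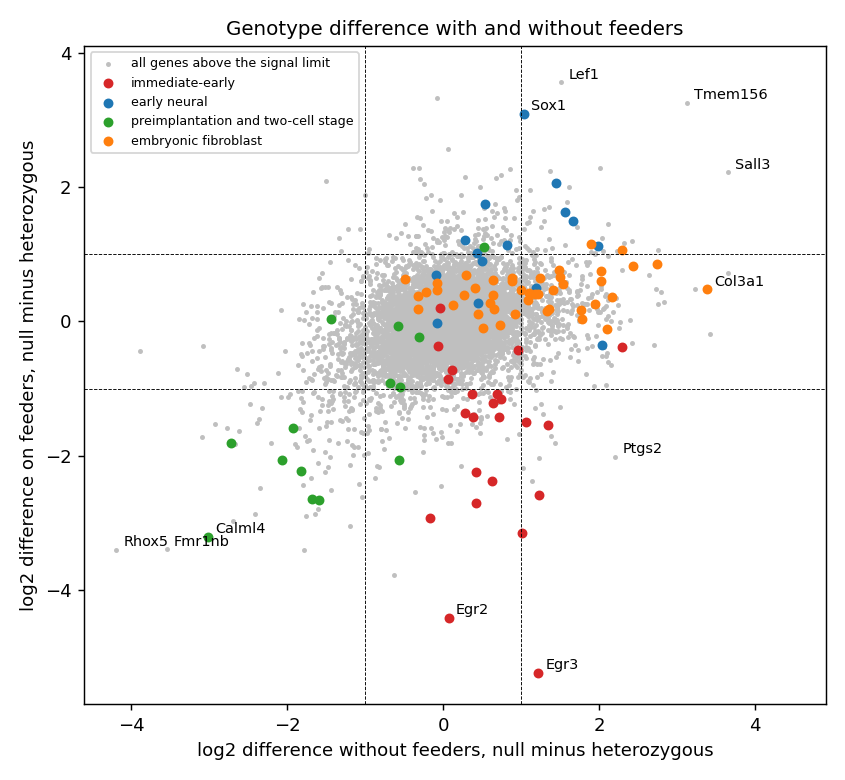
Each point is 1 of the 11650 genes, placed by its log2 difference without feeders (horizontal) and on feeders (vertical), null minus heterozygous, with dashed lines at 2-fold. Rhox5, Fmr1nb and Calml4 are low on both axes, Tmem156 and Sall3 high on both, immediate-early genes such as Egr2 and Egr3 are low only on the vertical axis, and Ptgs2 lies at 2.20 and -2.02.

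In part of the counted genes a single array stood apart. These genes were chosen by the difference between the 2 feeder arrays, and the same pattern was not counted over all genes described. Among the 294 lower genes the heterozygous feeder array was at least 2-fold above each of the other 3 arrays in 59 (20.1%), and the labelled-null feeder array at least 2-fold below them in 33 (11.2%). Among the 196 higher genes the labelled-null feeder array stood at least 2-fold above the rest in 45 (23.0%), and the heterozygous feeder array below the rest in 30 (15.3%). Egr2, Nr4a3 and Fosb are of the first kind, and Cdh9 and Sox1 of the last.

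The spread of the differences narrowed with signal. Its standard deviation across genes was 0.60 where the brighter array read between 17.1 and 50, and 0.34 above 1000. The share counted went with it, from 3.43% higher and 5.02% lower in the dimmest range to 0.740% and 1.16% in the brightest. Bright genes that were counted, such as Rhox5, Egr1, Ccn2, Errfi1 and Lefty1, thus stood against a narrower spread than dim ones such as Hormad2, Adgrv1 or Mlip. Further probe sets of the same genes mostly pointed the same way: of 80 above the limit for the higher genes, 77 had the same sign and 44 were past 2-fold, with 1 past 2-fold in the opposite direction. For the lower genes 87 of 88 had the same sign, 45 past 2-fold and 0 opposite. They were read from the same 2 RNA samples and measure the probes' agreement, not the cultures'.

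By chromosome, the X held 20 of its 385 genes (5.19%) at least 2-fold lower and 10 (2.60%) higher, beside 2.52% and 1.68% of all 11631 placed genes. Other chromosomes had up to 3.54% lower and up to 2.92% higher. The 20 included Rhox5, Rhox6, Rhox9, Fmr1nb and Stard8, the last at 296 and 36.4 on feeders (-2.87). The median over all X genes was 0.08, and the medians of the other chromosomes lay between -0.04 and 0.03.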

How the data were processed

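Total RNA of 4 cultures was hybridised to 1 Affymetrix array each. The authors deposited linear array intensity per probe set, made with MAS5 per the submitters' processing notes, which give no version; the values carry no detection calls. The 2% trimmed mean was 100 on every array, so no further scaling was applied. Of 45101 probe sets, 64 controls were left out, 34945 had 1 gene symbol in the platform annotation, and the 932 with more than 1 and the 9160 without any were set aside. Where a gene had more than 1 probe set, the one with the highest 4-array mean of log2(signal + 4.6) was taken. Genes were counted when the 2 arrays differed at least 2-fold and the brighter was above 17.1. With 1 array per group no p-value was computed, and the number of arrays limits the precision. Medians of the feeder arrays were 17.1 (heterozygous) and 18, and their Spearman correlation across probe sets was 0.94.

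Named genes were Sall4 and Pou5f1, the 15 highest and 15 lowest, up to 4 members a list (8 for pluripotency, neural and fibroblast lists) with the largest differences, and up to 6 genes opposite between the feeder conditions; further members were named after their values were seen. The lists, members and alternatives were chosen with earlier results of these data known. Chromosomes and gene order (11631 genes matched) and promoter sequences came from RefSeq, GRCm38.p6; the array files name no genome build. Other offsets, limits, normalizations, probe set rules and thresholds were tried. Counting was checked on simulated data. Python 3.11.15, numpy 2.4.6 and pandas 2.3.3 were used.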

Additional observations from a re-analysis of the deposited data

Results flagged for a closer look

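In 15 genes the array labelled null and the heterozygous array differed at least 2-fold in opposite directions with and without feeders. The difference between the pairs was not tested, since each group has 1 array. On feeders 13 of them were lower on the log2 scale and higher without feeders. These 13 were among 294 genes lower on feeders, and the reverse 2 were among 196 higher genes. Of all 11304 genes described without feeders, 4.44% were at least 2-fold higher and 3.46% were lower, and the 15 are to be read beside these shares. Immediate-early members were Egr3 (-5.23 on feeders and 1.22 without), Fos (-2.59 and 1.23), Ccn2 (-1.55 and 1.34) and Ccn1 (-1.50 and 1.06). Growth factor feedback and response genes were Dusp5 (-2.18 and 1.02), Errfi1 (-2.03 and 1.22), Phlda1 (-1.70 and 1.38) and Ier5 (-1.23 and 1.26). Genes of secreted or membrane-bound mediators and their enzymes were Ptgs2 (-2.02 and 2.20), Edn1 (-1.39 and 1.28) and F3 (-1.27 and 1.49), and the others were C2cd4b (-1.54 and 1.35) and Tuft1 (-1.02 and 1.19). The reverse held for Lefty2 (1.24 and -1.33), a Nodal inhibitor, and for Ltb, the lymphotoxin beta gene (1.37 and -1.07). C2cd4b and Ltb were dim, with no signal above 30 on any of the 4 arrays.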

How the results depend on the processing

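None of the 89 named genes at least 2-fold apart changed sign under the alternatives in which they were compared. Of these, 67 stayed at least 2-fold apart under every alternative in which they were compared. Not all of the 67 were compared in all 8, since dim genes dropped out of some: Mlip, Amdhd1 and Nr4a3 were compared in 5. Tfcp2l1, Plk2, Flt1 and Rps18, within 2-fold, each changed sign under 1 alternative, as did 8 list medians no larger than 0.22 (LIF pathway, primed epiblast, endoderm, primitive streak and mesoderm, IGF, macrophage, interferon, and DNA methylation and polycomb) under at least 1. The 196 higher and 294 lower genes became 82 and 145 with the offset at the median signal, 65 and 113 with the brighter array above 90.6, 44 and 100 at a 3-fold threshold, and 561 and 541 over every probe set. The higher share of the counted genes, 40%, was 30.6% with median centring (148 higher, 335 lower), which shifted the median of all genes to -0.05, and 50.9% over every probe set. The preimplantation list median of -1.70 became -1.03 with the offset at the median signal and -0.98 with the brighter array above 90.6. Of 1364 single-gene values under alternatives 49 moved by more than 1.5 times, 39 of them with another offset and 9 with the mean of probe sets. Counts without the immediate-early list or the fibroblast and contractile lists were added after seeing the data, and left 196 and 193 higher genes and 277 and 294 lower ones. No paired analysis was possible because each group has 1 array, and for the same reason no array could be left out. Signals below 17.1 give no dependable fold.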
